A study of Mus musculus with 5 samples.

Results

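The genes described here encode the proteins of the mitochondrial ribosome. They were taken as the genes whose symbol begins with Mrpl (large subunit) or Mrps (small subunit) followed by a number, among probe sets annotated to a single gene. This gave 77 of the 19938 genes measured, 48 Mrpl and 29 Mrps genes. A gene with several probe sets is represented by its brightest one, averaged over the 5 arrays. Transcripts were measured on 5 Affymetrix gene arrays, each of liver RNA from male mice aged about 10 months. The 2 control samples were normal liver of genotype Hdac3FL/+; AlbCre+, and the 3 null samples were liver tumours of genotype Hdac3FL/-; AlbCre+. All 5 mice thus carried Cre driven by the albumin promoter, which acts in hepatocytes, and a floxed allele of Hdac3, a histone deacetylase. After Cre acts, hepatocytes of the controls retain a single wild-type copy, and those of the null mice retain none. Tissue and genotype cannot be told apart here, because every null sample was tumour and every control was normal liver. Arrays are called biological replicates in the labels.

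The mitochondrial ribosome sits in the mitochondrial matrix and translates the few messenger RNAs made from mitochondrial DNA, which encode core subunits of the respiratory chain and the ATP synthase. All of its proteins are encoded in the nucleus and imported, while its ribosomal RNAs come from the mitochondrial genome. Many of the proteins have counterparts in bacterial ribosomes, and the others are found only in mitochondria. Liver is rich in mitochondria and depends on them for fatty acid oxidation, the urea cycle and gluconeogenesis.

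The arrays were on a common scale, with medians between 5.66 and 5.77 on the deposited log2 scale. Hdac3 was lower in all 3 tumours (6.78, 6.57 and 6.65) than in the controls (8.21 and 8.37), a log2 change of −1.62 (SE 0.13, n = 2 and 3; limma adjusted p = 0.00298). The call was lost without control 1 (adjusted p = 0.0505) or control 2 (adjusted p = 0.0663). Where its probes lie relative to the deleted part was not analysed here. All 9 measured hepatocyte markers had group means above the lower quartile of the arrays, and 1 of them fell. Among 10 macrophage markers 5 rose, with a mean log2 level of 6.47 to 6.92 in controls and 7.43 to 8.78 in tumours. Of the markers of other cell types, 1 of 8 stellate cell genes rose, and none of 6 cholangiocyte, 8 endothelial and 7 T and B cell genes passed. Fewer cells of a type and less RNA per cell cannot be told apart in whole tissue.

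No mitochondrial ribosomal protein gene differed by 2-fold or more between tumours and control livers. Smaller differences were about as frequent as over all genes. The median absolute log2 change was 0.21 for the members and 0.20 for all genes, and the groups did not overlap for 49.35% and 44.2%. Mrpl18, Mrpl41 and Mrpl57 fell and Mrps18a rose, each by less than 2-fold, and the other 73 members did not pass the test. No filter on dim genes was applied and all 77 members were tested. The 4 calls are 5.19% of the members, against 10.6% of all genes called at a limma adjusted p under 0.05. By direction, 5.6% of all genes rose and 4.96% fell. At an unadjusted p under 0.05 the share was 24.7% of members (19 genes) and 25.2% of all genes. Among the 11140 genes with a mean level between the lowest and highest member mean, that share was 35.5%. The groups did not overlap for 53.95% of those genes. For a single gene, 2 against 3 arrays allow an exact two-sided permutation p of 0.1 at the lowest, so these calls depend on pooling the spread over genes. All 4 calls were lost when control 1, control 2 or tumour 2 was left out, and only Mrpl18 kept its call without tumour 1 (adjusted p = 0.0403), where Mrps23 passed as well. Without tumour 3, Mrpl57 was lost (adjusted p = 0.0637) and the other 3 were kept. With the replicate number as a block, a fit in which tumour 3 has no partner, 0 members passed.

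Mrpl18 belongs to the large subunit, where its bacterial relative binds a small ribosomal RNA in the central protuberance. The control livers gave log2 values of 9.94 and 9.88, whereas tumours 1, 2 and 3 gave 9.36, 9.25 and 9.17. The groups did not overlap, and the log2 change was −0.65 (SE 0.13; limma adjusted p = 0.0299), a tumour level 0.639 times that of control. Mrpl41 is a large-subunit protein without a bacterial counterpart. It stood at 8.63 in both controls and at 7.87, 8.06 and 8.16 in the tumours, again without overlap. Its change was −0.60 (SE 0.14; limma adjusted p = 0.0475). A second, dimmer probe set annotated to Mrpl41 gave a change of −0.39. Which of them matches the Mrpl41 gene itself was not checked. With the mean of both probe sets the call for Mrpl41 was lost (limma adjusted p = 0.0846). Mrpl57, another mitochondria-specific protein of the large subunit, had values of 7.02 and 7.12 in the controls. In the tumours it read 6.55, 6.62 and 6.45, below both controls in each case. The change was −0.53 (SE 0.12; limma adjusted p = 0.0499), just inside the threshold.

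Mrps18a was the member that rose. Mammals have 3 related genes, Mrps18a, Mrps18b and Mrps18c, which all resemble the same bacterial small-subunit protein. Structures place the Mrps18a product in the large subunit despite its name, and those of Mrps18b and Mrps18c in the small subunit. Mrps18a stood at 8.80 and 8.86 on the log2 scale in control liver, and at 9.31, 9.46 and 9.40 in the tumours. That is a change of 0.56 (SE 0.12; limma adjusted p = 0.0402), or 1.47-fold, with no overlap between groups. The call was lost when all arrays were set to the same median (change 0.50; limma adjusted p = 0.0634). Mrps18b read 9.42 and 9.58 in the controls and 9.90, 10.07 and 9.92 in the tumours, and did not pass (0.46; limma adjusted p = 0.0827). Mrps18c lay the other way, at 9.74 and 9.71 in the controls and 9.36, 9.36 and 9.45 in the tumours, and did not pass either (−0.34; limma adjusted p = 0.134). All 3 tumours lay above both controls for Mrps18a and Mrps18b and below both for Mrps18c. Whether the 3 genes differ from each other was not tested.

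**Figure D1:**
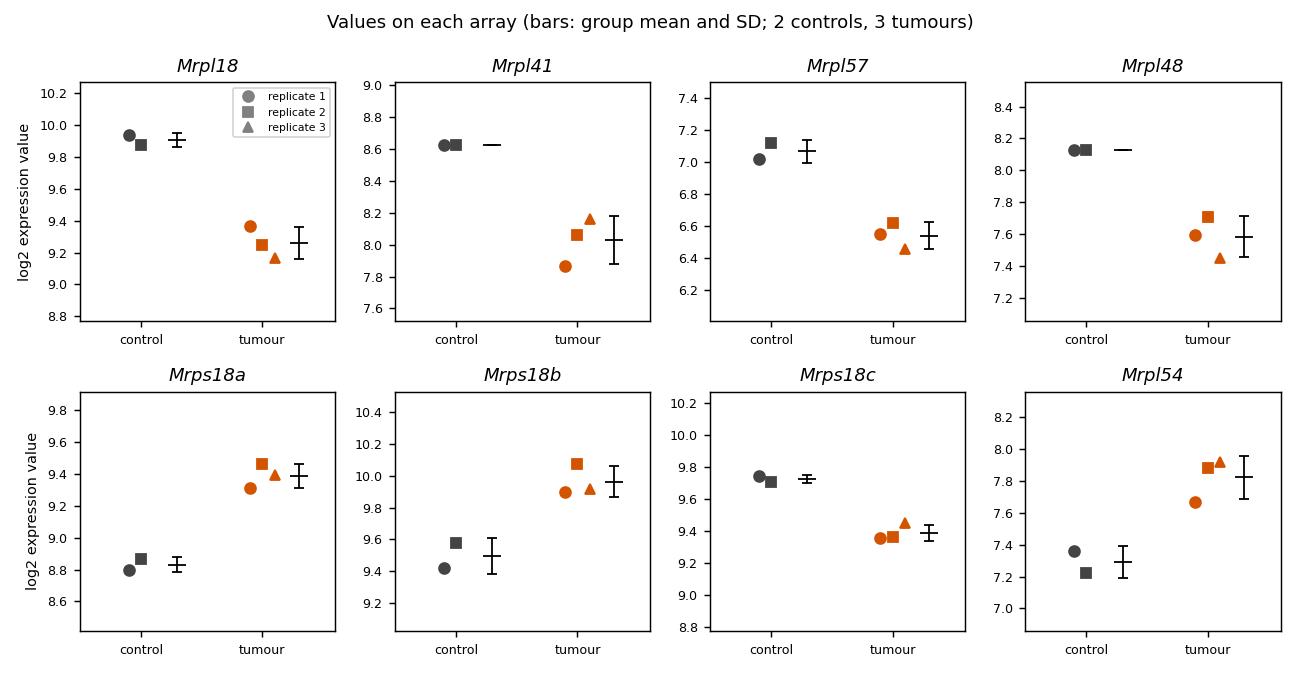
Log2 expression values of 8 mitochondrial ribosomal protein genes on each array (grey, 2 controls; orange, 3 tumours; marker shape gives the replicate number; bars give the mean and SD of each group). In each panel the tumour values do not overlap the control values, as in 44.2% of all genes. Each vertical axis spans 1.5 log2 units.

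The upstream sequences of the 4 called genes are shown because these genes differ in direction and can be compared at the DNA level. They are the bases just before the annotated start, from RefSeq on GRCm38.p6, read 5′ to 3′ on the strand of the gene, up to 150 bases or up to the start of a neighbouring gene. Capitals mark a match to a binding motif of NRF1 or of ETS factors such as GABP (CCGGAAG), searched on both strands, with overlaps between motifs allowed. These factors are known regulators of nuclear genes for mitochondrial proteins. The fifth stretch is the whole gap between Mrps11 and Mrpl46, a small-subunit and a large-subunit gene that start back to back, read on the strand of Mrps11.
Mrpl18 (chr17:12916092-12916241, minus strand): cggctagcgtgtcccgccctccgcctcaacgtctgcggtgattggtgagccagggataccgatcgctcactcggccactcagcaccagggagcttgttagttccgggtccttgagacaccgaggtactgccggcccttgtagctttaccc
Mrpl41 (chr2:24975099-24975248, minus strand): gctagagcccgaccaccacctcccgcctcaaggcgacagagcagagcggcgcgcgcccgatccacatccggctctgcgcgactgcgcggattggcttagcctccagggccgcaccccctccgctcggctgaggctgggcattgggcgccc
Mrpl57 (chr14:57826164-57826238, plus strand): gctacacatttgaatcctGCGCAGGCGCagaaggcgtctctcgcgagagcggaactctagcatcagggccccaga
Mrps18a (chr17:46110854-46111003, plus strand): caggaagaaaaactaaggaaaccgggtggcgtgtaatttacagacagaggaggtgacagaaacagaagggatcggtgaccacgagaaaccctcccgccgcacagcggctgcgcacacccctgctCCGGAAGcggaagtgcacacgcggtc
Mrps11 (chr7:78783090-78783130, plus strand): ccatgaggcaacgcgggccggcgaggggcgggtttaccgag

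In these stretches the NRF1 motif lay 57 to 48 bases before the start of Mrpl57 and the ETS motif 26 to 20 bases before that of Mrps18a. None of the 3 motifs searched lay in the stretches of Mrpl18, Mrpl41 and Mrps11. The full promoter windows, which reach further on either side, held more matches. An ETS match was present in the windows of Mrpl18 and Mrpl57, which fell, as well as Mrps18a, which rose, and the YY1 motif in those of Mrps18a and Mrps11. The window of Mrpl41 held none of the 3. Promoter windows of 250 bases before and 50 after the start were found for 68 of the 77 members. An NRF1 match was present in 13 of the 68 (19.1%), against 7.2% of 17491 protein-coding genes. An ETS match was present in 25 (36.8%, against 12.9%), and the YY1 motif AAGATGGC in 12 (17.6%, against 3.6%). At least 1 of the 3 motifs was found in 42 members (61.8%), against 21% of protein-coding genes. The median log2 change was −0.15 in the 13 members with an NRF1 match and −0.11 in the 55 without, and it was −0.01 in the 25 with an ETS match and −0.15 in the 43 without. For YY1 it was −0.15 in 12 and −0.09 in 56. A match is a string of letters, and binding was not measured.

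Many members also share their start region with another gene. Of the 68 with a promoter entry, 25 (36.8%) had a protein-coding gene starting on the opposite strand within 1000 bases, head to head, against 8.7% of protein-coding genes. Of 24 such partners that were measured, 1 fell and 0 rose, beside 4.96% and 5.6% of all genes. That partner was Ndufb5, a subunit of respiratory complex I, which lies beside Mrpl47 and changed by −0.76 (SE 0.15; limma adjusted p = 0.0297), a call lost without either control or tumour 1. Mrpl47 itself did not pass (−0.15; limma adjusted p = 0.689). Beside the called members, Tcp1, a subunit of the cytosolic chaperonin, starts 238 bases from Mrpl18 and stood at −0.12 (limma adjusted p = 0.838). Ska3, which acts at the kinetochore, starts 76 bases from Mrpl57 and stood at 0.61 (limma adjusted p = 0.0639), opposite in sign to its neighbour, with a control mean of 4.05 that is below the lower quartile of the arrays. Pnpla7, a lysophospholipase gene, starts 935 bases from Mrpl41 and stood at −0.43 (limma adjusted p = 0.174). The pair Mrps11 and Mrpl46, with 42 bases between their starts, stood at −0.15 and 0.20, and neither passed.

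**Figure D2:**
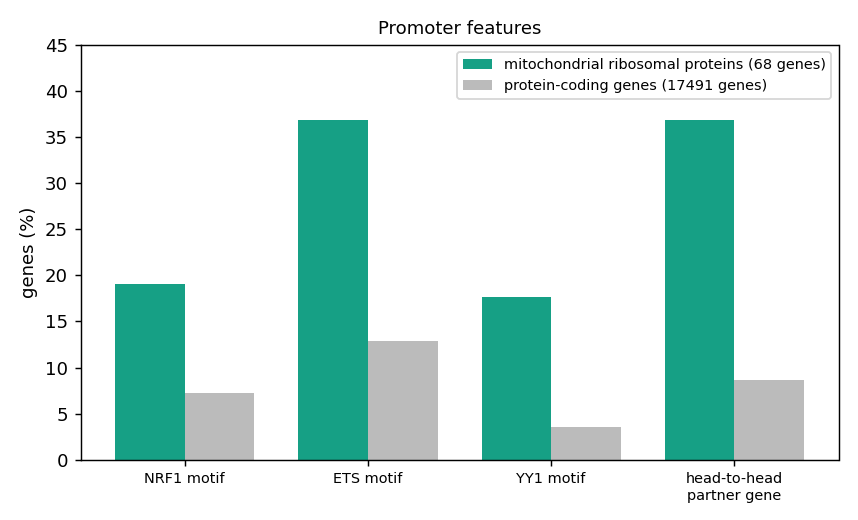
Share of genes (%) whose promoter window holds an NRF1, ETS or YY1 motif, and share with a protein-coding head-to-head partner within 1000 bases, for 68 mitochondrial ribosomal protein genes (green) and 17491 protein-coding genes (grey). The ETS motif and a partner gene were each found for 36.8% of the mitochondrial ribosomal protein genes, against 12.9% and 8.7%.

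The large subunit carries the peptidyl transferase centre, the exit tunnel and the stalks that bind translation factors. Its 48 members had a median log2 change of −0.07 (quartiles −0.27 and 0.13), beside a median of −0.02 (quartiles −0.20 and 0.20) over all genes. Of the 48, 3 fell, 0 rose, 28 lay below the control mean and 20 above it. For 25 large-subunit genes the groups were fully separate, 15 lower and 10 higher in tumour. Over all genes 44.2% did not overlap, 23.1% lower and 21.1% higher. Mrpl2 and Mrpl3, whose bacterial relatives lie near the peptidyl transferase centre, stood at −0.22 and 0.04. The sign of Mrpl3 turned when all arrays were set to the same median. Mrpl4, of the exit tunnel, stood at −0.21, and Mrpl16, next to the transfer RNA sites, at 0.28. Mrpl1, Mrpl11 and Mrpl12 belong to the stalks and stood at 0.15, −0.09 and −0.09. None of these 7 passed, with limma adjusted p from 0.306 for Mrpl2 to 0.929 for Mrpl3.

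Other members had differences as large as those of the called genes without passing the test. Mrpl22, of the exit tunnel, read 6.20 and 6.52 in the controls and 5.84, 5.92 and 5.62 in the tumours (−0.57; limma adjusted p = 0.0859). Mrpl14 read 8.50 and 8.41 in the controls and 7.70, 8.13 and 7.83 in the tumours (−0.57; limma adjusted p = 0.0893). Mrpl48, a mitochondria-specific protein of the central protuberance, read 8.13 in both controls and 7.60, 7.71 and 7.45 in the tumours (−0.54; limma adjusted p = 0.0539). None of these 3 genes passed. They were named among the 8 largest falls without overlap, so tumours below both controls were a condition of naming them. Over all genes 23.1% met that condition.

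On the other side, Mrpl19 had the largest positive difference of any member. It read 6.83 and 6.94 in the controls and 7.20, 7.51 and 7.91 in the tumours, a change of 0.66 (SE 0.22; limma adjusted p = 0.131). Its tumour values were spread over 0.71 log2 units, and it did not pass. Mrpl54 read 7.36 and 7.22 in the controls and 7.67, 7.88 and 7.92 in the tumours (0.53; limma adjusted p = 0.0659). Mrpl21 stood at 0.50, Mrpl17 at 0.38 and Mrpl40 at 0.30, with limma adjusted p of 0.0921, 0.226 and 0.311. These 5 genes were named among the 8 largest rises without overlap, so tumours above both controls were a condition of naming them. Over all genes 21.1% met that condition.

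The small subunit binds the messenger RNA and holds the decoding centre. Its 29 genes had a median log2 change of −0.15 (quartiles −0.29 and 0.11), with 1 risen, 0 fallen, 16 below the control mean and 13 above it. The groups were fully separate for 13 genes (44.8%, against 44.2% of all genes), 10 lower and 3 higher in tumour. Mrps12, the protein of the decoding centre, stood at 0.01 (SE 0.17), with control values of 7.14 and 7.18 inside the tumour range of 6.92 to 7.41. That sign turned with repeated quantile normalisation and with all arrays set to the same median. Mrps5, at the entry of the messenger RNA channel, stood at −0.46 (limma adjusted p = 0.29). It read 7.82 and 8.05 in the controls and 7.09, 7.81 and 7.53 in the tumours. Mrps2, Mrps7 and Mrps15 stood at 0.06, −0.15 and 0.12, and Mrps22, a mitochondria-specific protein mutated in inherited respiratory chain disease, at 0.24. Mrps23 read 8.12 and 8.19 in the controls and 8.27, 8.88 and 8.90 in the tumours (0.53; limma adjusted p = 0.205). Mrps35 stood at −0.48 (limma adjusted p = 0.202).

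Some Mrps symbols do not mark small-subunit proteins. The Mrps30 product, like that of Mrps18a, is part of the large subunit in structures, and Mrps36 encodes a component of the oxoglutarate dehydrogenase complex. Mrps30 stood at 0.29 (limma adjusted p = 0.563). Mrps36 stood at −0.54 (limma adjusted p = 0.144), and its second probe set gave −0.53. With the subunits assigned by structure, the median change was −0.04 over 50 large-subunit genes and −0.15 over 26 small-subunit genes. The single rise then belonged to the large subunit, and 0 small-subunit genes passed the limma test, with 3 at an unadjusted p under 0.05. The difference between the medians of the fitted changes, large minus small by symbol, was 0.08. Taken in each tumour, this difference had an SD of 0.08 over the 3 tumours, which did not share its sign. The large-subunit median was the lower in tumours 1 and 2 (−0.23 against −0.20, and 0.01 against 0.11). It was the higher in tumour 3 (0.04 against −0.01). Large minus small by symbol turned to −0.033 with array weights and to −0.012 without tumour 3 or with the replicate block. The 48 members with a bacterial counterpart had a median of −0.12 and the 29 mitochondria-specific ones a median of −0.06. Each set held 2 calls (4.17% and 6.9%), beside 10.6% of all genes called. Mrps36 was counted among the 29.

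**Figure D3:**
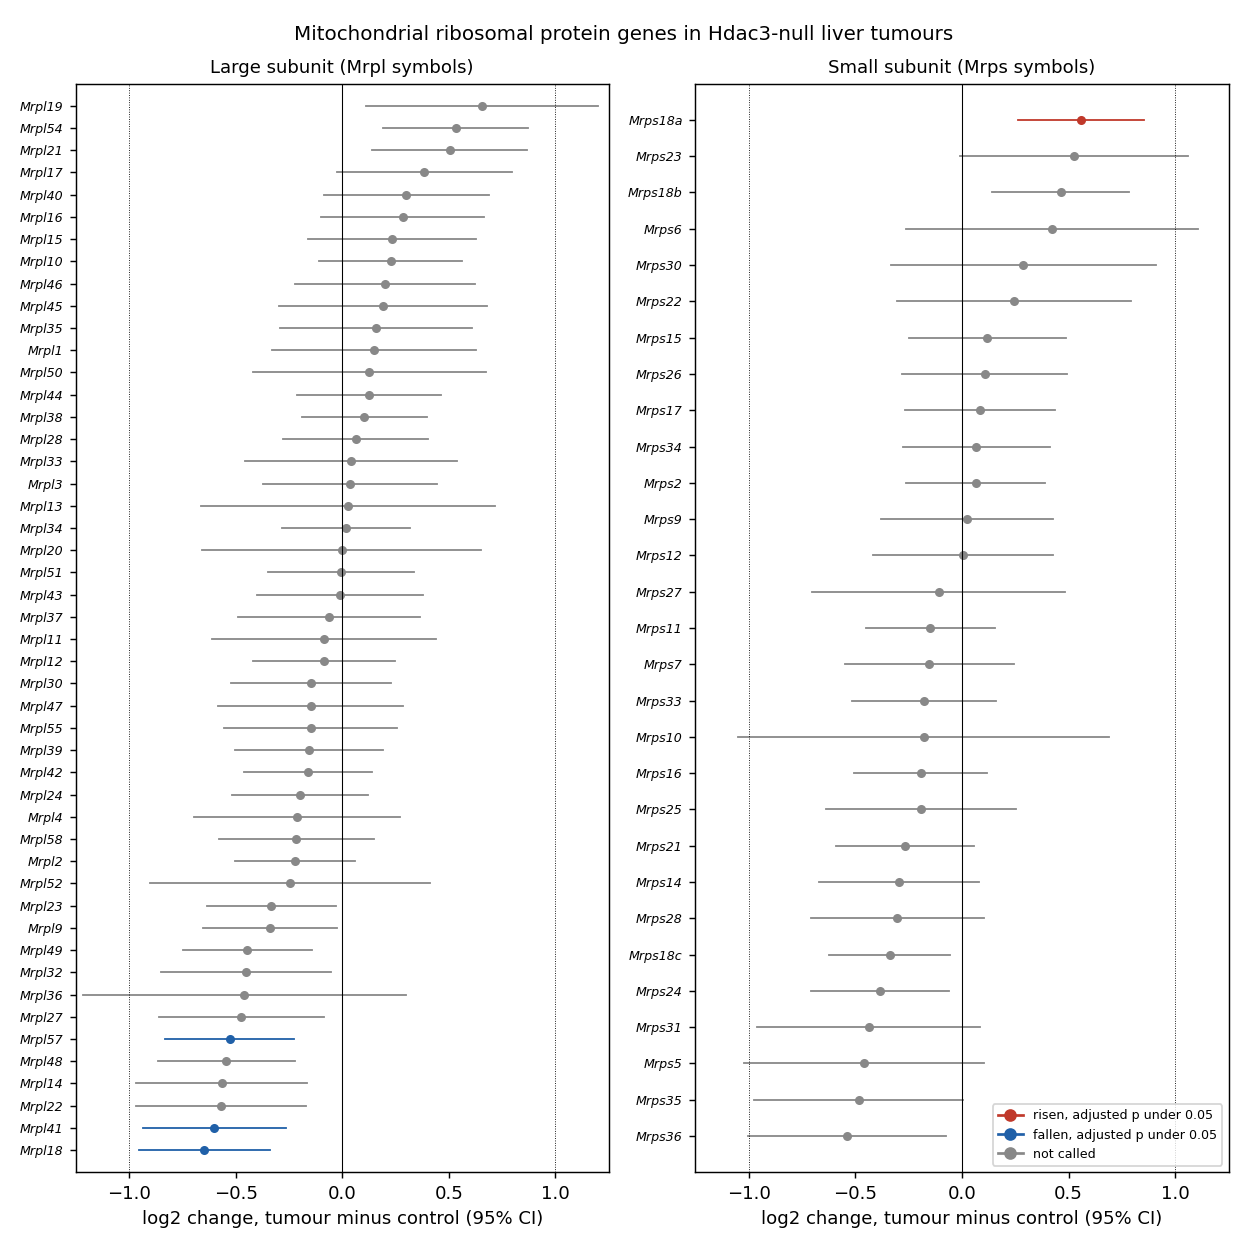
Log2 change (tumour minus control) with its 95% confidence interval for each of the 48 Mrpl genes (left) and 29 Mrps genes (right), ordered by size; dotted lines mark a 2-fold change. Blue marks the 3 genes that fell, red the 1 that rose and grey those not called, and all point estimates lie between −0.65 and 0.66.

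No member had a difference of 2-fold or more, whereas 9.49% of all genes did. Bright genes differ more often, and among the 11140 genes in the level range of the members the share was 13.9%, with 15.9% called. The largest absolute change of a member was 0.66 log2 units, and 16.5% of all genes exceeded it. The 95% confidence interval lay wholly within a 2-fold change in either direction for 70 of 77 members (90.9%), and for 77.2% of all genes. These intervals hold for 1 gene at a time, not for the 70 genes together, and rest on a spread pooled over genes. Mrps10 and Mrpl36 had the widest spread among the tumours. Mrps10 ran from 5.48 in tumour 3 to 6.63 in tumour 2, and its controls lay within that range, so the groups overlapped. Mrpl36 read 7.59 and 7.76 in tumours 1 and 3 and 6.76 in tumour 2, beside 7.75 and 7.91 in the controls. Both were chosen after their values were seen. Member means lay between 5.41 and 9.96, and no member fell under the lower quartile of any array, so none of them rests on the dimmest signals.

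The 3 tumours were not alike. Relative to the control mean, the large-subunit genes had medians of −0.23, 0.01 and 0.04 in tumours 1, 2 and 3, and the small-subunit genes medians of −0.20, 0.11 and −0.01. The median of all genes was −0.04, −0.04 and 0.03. Tumour 1 lay below both controls for 56 of 77 members (72.7%), compared with 44.6% of all genes. Tumours 2 and 3 did so for 32 and 34 members (41.6% and 44.2%), compared with 44.3% and 37.7% of all genes. Tumour 1 was the lowest of the tumours for 50 members (64.9%), and for 37.5% of all genes. Without tumour 1 the median change was 0.00 for the large and −0.08 for the small subunit. The mean log2 level of macrophage markers was 8.78, 7.62 and 7.43 in tumours 1, 2 and 3, but the markers did not share an order. Cd68, Gpnmb, Adgre1 and Csf1r, all among the 5 that rose, were highest in tumour 3, and the other 6 of 10 were highest in tumour 1. Vsig4, a marker of resident macrophages, read 9.84, 7.34 and 4.55. Endothelial markers (8.49, 7.49 and 6.37), stellate cell markers (8.07, 7.39 and 6.27) and hepatocyte markers (12.51, 12.42 and 12.32) had their highest mean in tumour 1. T and B cell markers (5.07, 5.12 and 5.80) and cholangiocyte markers (5.48, 5.56 and 5.60) had their lowest mean there. The part of these markers in the lower values of tumour 1 was not tested.

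**Figure D4:**
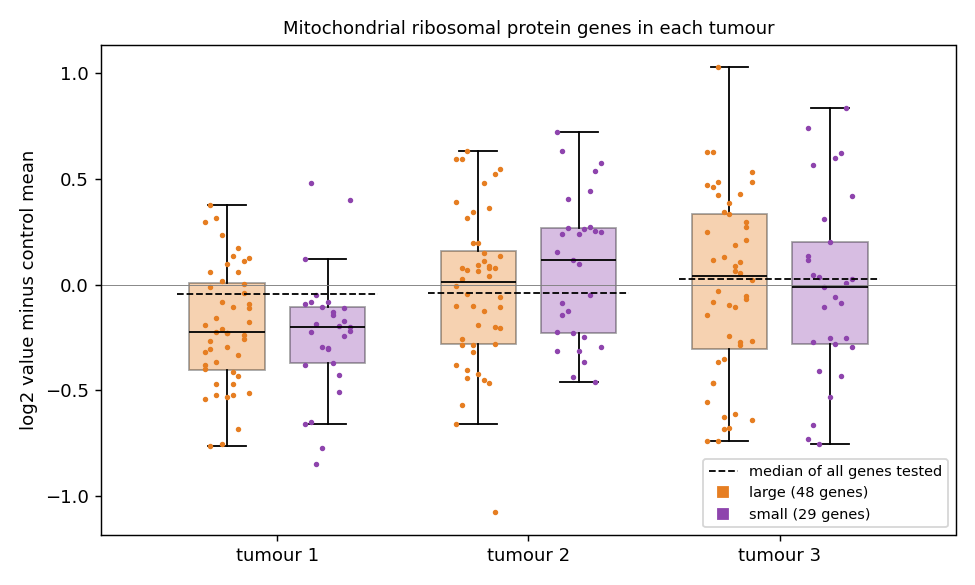
Log2 value of each gene in each tumour minus its mean in the 2 control livers, for large-subunit (orange) and small-subunit (purple) genes; boxes give the quartiles over genes, whiskers reach the last point within 1.5 box lengths, and dashed lines give the median of all genes tested. Tumour 1 has medians of −0.23 and −0.20, below those of tumours 2 and 3.

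Other genes of mitochondrial translation were examined as lists. The 4 measured ribosomal proteins that carry other symbols (Dap3, Ptcd3, Chchd1 and Gadd45gip1) had 0 calls by limma (0 at an unadjusted p under 0.05) and changes between −0.14 and 0.23. Of 13 translation factors, which start, extend and end protein synthesis on the mitochondrial ribosome, 0 passed the limma test. At an unadjusted p under 0.05 there were 6 (46.15%, against 25.2% of all genes and 35.5% of those in the level range of the members). The median of the 13 factors was −0.40, with 10 of 13 below the control mean. The tumours lay below both controls for 7 and above both for 0, beside 23.1% and 21.1% of all genes. Of 25 assembly factors of the mitochondrial ribosome, 0 passed the limma test and 7 (28%) had an unadjusted p under 0.05. Their median was −0.20, and the tumours lay below both controls for 9 and above both for 2, beside 23.1% and 21.1% of all genes.

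Among 21 mitochondrial transfer RNA synthetase and amidotransferase genes, 2 fell and 0 rose, 9.52% called beside 10.6% of all genes. Their median was −0.02, with 11 below the control mean and 10 above it. The tumours lay below both controls for 5 and above both for 2, beside 23.1% and 21.1% of all genes. Gars had the largest positive difference of the list (1.44; limma adjusted p = 0.054) and did not pass. Nars2, which charges the mitochondrial transfer RNA for asparagine, read 8.19 and 8.24 in the controls and 6.55, 6.58 and 6.64 in the tumours. The change was −1.62 (SE 0.12; limma adjusted p = 0.002), beyond the −0.65 of the member with the largest fall. The values of Nars2 within each group lay close together, and the groups did not overlap. Fars2, its counterpart for phenylalanine, fell by 0.95 (limma adjusted p = 0.02). In the list of mitochondrial DNA expression, 2 of 16 fell (12.5%) and 0 rose. Hsd17b10, a subunit of mitochondrial ribonuclease P as well as a dehydrogenase, read 11.16 and 10.96 in the controls and 9.68, 10.01 and 9.61 in the tumours (SE 0.17; limma adjusted p = 0.01). Polg2, the accessory subunit of the mitochondrial DNA polymerase, fell by 0.87 (limma adjusted p = 0.0142).

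Of 12 regulators of mitochondrial gene expression or biogenesis, 2 rose and 0 fell, 16.7% called beside 10.6% of all genes. The tumours lay above both controls for 4 of the 12 and below both for 4, beside 21.1% and 23.1% of all genes. Among the latter, Ppargc1a stood at −1.23 (limma adjusted p = 0.101) and Ppargc1b at −0.43 (limma adjusted p = 0.3215), and neither passed. Myc, a transcription factor of growth that also acts on many genes of ribosome synthesis, read 7.02 and 7.14 in the controls and 8.53, 9.44 and 9.38 in the tumours (2.04, SE 0.29; limma adjusted p = 0.0129). Nfe2l2, the regulator of antioxidant genes, rose from 9.50 and 9.32 to 10.58, 10.76 and 10.47 (limma adjusted p = 0.00823). The genes for the factors whose motifs were searched, Nrf1, Gabpa and Yy1, stood at 0.08, −0.15 and 0.27 and did not pass. Without control 1 or control 2 the calls of these 6 genes were lost, except that of Nars2 without control 1 (limma adjusted p = 0.046), and that of Fars2 was also lost without tumour 2 (0.0557).

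The cytosolic ribosomal proteins served for comparison, taken as the 53 measured genes whose symbol matched a pattern for this family. Members of the family without a matching symbol or a single-gene probe set are not in this list. Of the 53 genes, Rps12, Rpl38 and Rps19 rose and 0 fell, 5.66% called beside 10.6% of all genes. Their median was 0.28 (quartiles 0.17 and 0.39) over the 53. All 3 calls were lost without either control, and that of Rps19 also without tumour 1 or 2, or with all arrays set to the same median, and that of Rpl38 without tumour 2. The tumours lay above both controls for 41 of the 53 genes and below both for 1. For the 77 mitochondrial ones these counts were 13 and 25, and for all genes the shares were 21.1% and 23.1%. The per-tumour medians of the cytosolic genes were 0.28, 0.21 and 0.36, with no lower value in tumour 1. Probes for cytosolic ribosomal proteins can also match their many processed pseudogenes, so single values are uncertain. Whether probe sets of the mitochondrial ones match such copies was not checked. No test of the difference between these lists was made.

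**Figure D5:**
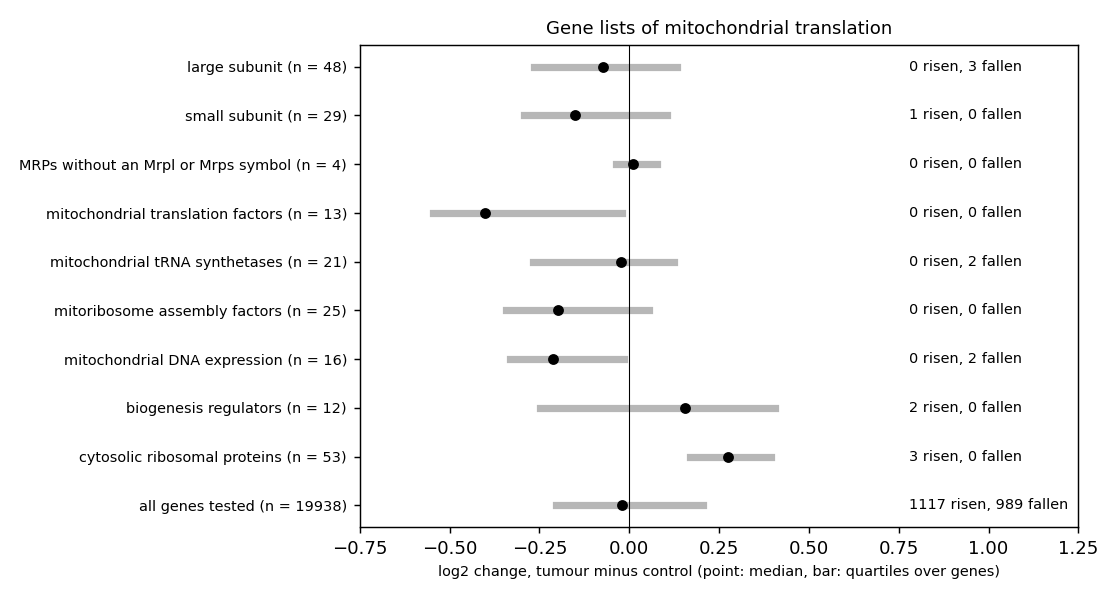
Median (point) and quartiles (bar) of the log2 change, tumour minus control, over the genes of each list of mitochondrial translation, of cytosolic ribosomal proteins and of all genes tested, with the number risen and fallen at a limma adjusted p under 0.05. The medians of the large and small subunits are −0.07 and −0.15, and that of the cytosolic ribosomal proteins is 0.28.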

How the data were processed

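The authors' deposited values are on a log2 scale, a single value for each probe set on each array. The submitters' processing notes list GCOS and RMA without saying which step each did. RMA is a procedure that normalises by quantiles and compresses small differences. No genome build or annotation version is given in the sources used here. Of 28853 probe sets, 21789 had 1 gene symbol in the platform's annotation, 1621 had several and 5443 had none. Only the first kind was used, so a probe set shared by Ccdc142 and Mrpl53 was left out. Of the members, 8 had more than 1 probe set. The genomic positions of the probe sets were not checked. The table held 0 columns of other samples.

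Tumour minus control was fitted on all 19938 genes in limma 3.58.1 (R 4.3.3; lmFit, eBayes), with no covariate. The fit had 3 residual and 2.98 prior degrees of freedom. Two-sided p-values were adjusted over all genes by Benjamini-Hochberg, with 0.05 as threshold. The number of arrays limits the precision. Where a control was left out, the other was assumed to vary like the tumours. The procedure was tested on simulated data. Python 3.11.15, pandas 2.3.3 and matplotlib 3.10.9 made the tables and figures.

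The members, lists, motifs and subunit roles were chosen with earlier results of these data known. Members named are those called, the 8 largest rises and falls without overlap between groups, and 18 chosen by role. From each list up to 4 called genes are named, and Hdac3. The partner genes, the list of cytosolic ribosomal proteins and the genes of the searched factors lie outside that rule. So do Gars, Ppargc1a, Ppargc1b, Mrps10 and Mrpl36. All of these were chosen after values were seen. Of the listed genes Mrpl57 and Mrpl58 were members already. Promoters are RefSeq windows on GRCm38.p6, matched by gene identifier or symbol; motif positions count back from the base before the start. Windows of 9 members (Mrpl4, Mrpl13, Mrpl15, Mrpl19, Mrpl38, Mrpl54, Mrps28, Mrps34 and Mrps35) were not used here.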

Additional observations from a re-analysis of the deposited data

How the results depend on the processing

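The medians of both subunits moved by less than their SD over tumours (0.15 and 0.16) under every alternative run, with ranges of −0.11 to 0.00 (large) and −0.17 to −0.08 (small) when single arrays were left out. With a common median they were −0.13 and −0.21, and with array weights −0.08 and −0.04. Large minus small turned to −0.033 with array weights and −0.012 with the replicate block, and ranged from −0.012 to 0.10 with arrays left out. The counts of members risen and fallen were 1 and 3. They became 0 risen with arrays shifted to a common median, 1 fallen with all probe sets as separate features, 0 and 1 with variance trend and robust settings, 4 and 5 with array weights, and 4 and 7 at adjusted p under 0.1. They were 0 and 0 with the replicate block, without moderation and with treat against a 1.2-fold change, and ranged from 0 to 1 and 0 to 2 with arrays left out. Genes called over all genes, 2106, became 3251 with array weights, 18 without moderation, 3326 at adjusted p under 0.1 and 1153 with treat, and ranged from 108 (without control 2) to 2719 with arrays left out. Calls in the other lists, 6, became 13 with array weights, 1 without moderation and 14 at adjusted p under 0.1, and ranged from 0 to 11 with arrays left out. The cause of these shifts was not tested.

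Same-numbered arrays did not deviate together (correlations 0.00 and −0.01), so the numbers were not taken as pairs; the replicate block left 0 members called. Mrps12 (0.01) stood at −0.027 with repeated quantile normalisation and −0.050 with a common median, and Mrpl3 (0.04) at −0.018 with a common median and −0.0088 with the block. With single arrays left out, Mrps12 ranged from −0.12 to 0.13, Mrpl3 from −0.043 to 0.16 and Mrpl11 from −0.20 to 0.11. The other members named by rule, Hdac3, Ndufb5 and the called genes of the lists kept their direction in every alternative run; Mrps10, Mrpl36 and the other partner genes were not refitted. The median of all genes was −0.07 with a common median, against −0.02.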
